A study of Mus musculus with 2 samples.

Results

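The dual-specificity MAP kinase phosphatases examined here were Dusp1, Dusp2, Dusp4, Dusp5, Dusp6, Dusp7, Dusp8, Dusp10 and Dusp16, taken by gene symbol. All 9 were found, each as 1 entry, among 55536 annotated genes, of which 22028 were protein-coding. The RNA was nucleoplasmic total RNA, freed of ribosomal RNA before sequencing, from C57BL/6J bone marrow-derived macrophages, cells that are grown in culture from marrow precursors. Both libraries belonged to a single group: cells given 100 ng/ml Lipid A (the Toll-like receptor 4 ligand within bacterial lipopolysaccharide) for 12 h, washed, left for 12 h, and harvested at 0 min of the next Lipid A stimulation. They were biological replicates 1 and 2, from separate biosamples, with starting RNA of 1 µg in replicate 1 and 500 ng in replicate 2, so replicate number and starting amount cannot be told apart. Age and sex are not recorded in the labels, cytoplasmic RNA was not analysed here, and without another group no effect of Lipid A on these genes was tested.

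Most MAP kinases are switched on by phosphorylation of a threonine and a tyrosine in their activation loop. The dual-specificity phosphatases switch such kinases off by removing both phosphates. Many members are themselves transcribed in response to MAP kinase signalling, which makes them feedback inhibitors. In macrophages Dusp1 is known for limiting p38 and JNK activity, and with it cytokine output, after Toll-like receptor stimulation. By textbook grouping, Dusp1, Dusp2, Dusp4 and Dusp5 encode inducible nuclear enzymes, Dusp6 and Dusp7 cytoplasmic enzymes selective for ERK, and Dusp8, Dusp10 and Dusp16 enzymes that prefer JNK and p38.

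The libraries held 22907877 (replicate 1) and 18612405 (replicate 2) expected counts over annotated genes. The chi-square of the counts of both libraries was 70.6 per degree of freedom over 14892 genes, so they are not 1 library deposited again, and the biological coefficient of variation estimated by edgeR was 0.186. The 10 macrophage markers ran from 36.6 to 1368 TPM over the libraries, with summed levels of 3624 TPM in replicate 1 and 2954 TPM in replicate 2. TPM is a transcript level per unit of length, scaled to a fixed total per library. All 18 markers of neutrophils, T cells, B cells, stromal cells, mast cells and dendritic cells stayed below 1 TPM in both, with summed levels of 2.06 and 1.76 TPM, and Ly6g, Cd3e and Fcer1a were at 0. In these bulk RNA samples, fewer cells that express a gene and less RNA per cell cannot be told apart.

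The family was expressed at low to moderate levels, and no member stood among the abundant mRNAs of these nuclei. A gene was called detected when its TPM reached 1 in each library. Of the 9 members, 5 (Dusp7, Dusp1, Dusp2, Dusp16 and Dusp6) were detected, against 44.4% of all protein-coding genes. No member reached 10 TPM in either library, whereas 4330 protein-coding genes did so in both. This scale depends on the noncoding RNAs in the total: with TPM rescaled over protein-coding genes alone, mean levels were 27.4 for Dusp7, 27.0 for Dusp1, 20.3 for Dusp2 and 13.3 for Dusp16. On that scale 7 members were detected, and the share of all protein-coding genes detected on it is not given here. Dusp10, Dusp5 and Dusp8 were under 1 TPM in both libraries and Dusp4 lay on either side of that level. The median level of the members was 1.30 ± 0.18 on the log2(TPM + 0.1) scale, against -0.91 ± 0.05 for all protein-coding genes and 3.22 ± 0.03 for the detected ones (mean ± SD of 2 libraries). Summed over members, the family level was 31.7 and 28.0 TPM in replicates 1 and 2. The nuclear enzymes contributed 17.6 and 12.6 TPM of this, the ERK-selective cytoplasmic enzymes 10.2 and 10.1 TPM, and the JNK and p38-selective enzymes 3.88 and 5.30 TPM.

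**Figure D1:**
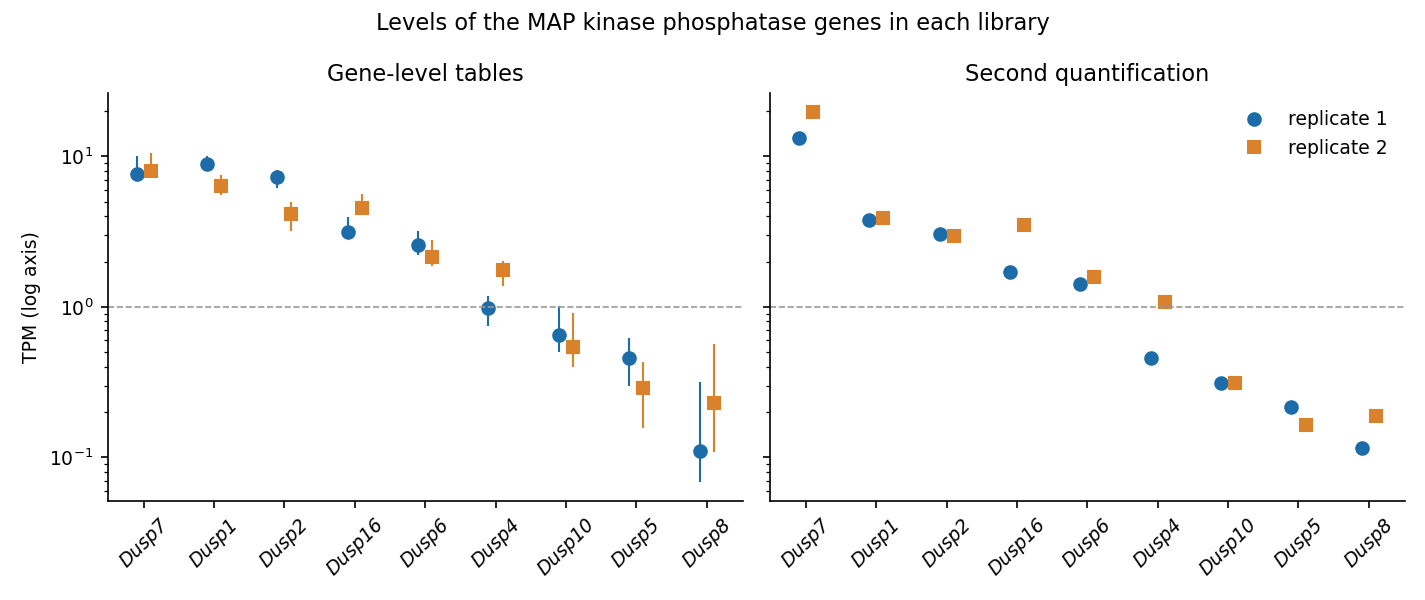
Level of each member in each library, in TPM on a log axis, from the gene-level tables (left) and from the second quantification (right); circles are replicate 1, squares replicate 2, and the lines at left are the bounds the authors deposited with their posterior mean TPM. The dashed line marks 1 TPM; Dusp10, Dusp5 and Dusp8 lie below it in both panels, and Dusp7 stands highest at right.

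Among the inducible nuclear enzymes, Dusp1 and Dusp2 were well above Dusp4 and Dusp5. Dusp1 (ENSMUSG00000024190.7, mm10 chromosome 17, 26505590 to 26562128, minus strand) had 411 counts and 8.87 TPM in replicate 1, and 235 counts and 6.40 TPM in replicate 2. It exceeded 76.9% of protein-coding genes in replicate 1 and 72.3% in replicate 2. Dusp2 (ENSMUSG00000027368.6, chromosome 2, 127336159 to 127338376, plus strand), a phosphatase known from activated haematopoietic cells, had 242 counts and 7.30 TPM in replicate 1 and 97 counts and 4.16 TPM in replicate 2. Both genes were higher in replicate 1, Dusp2 by more. Dusp4 (ENSMUSG00000031530.6, chromosome 8, 34807297 to 34819894, plus strand), which acts on ERK and JNK, had 71 counts and 0.98 TPM in replicate 1 and 109 counts and 1.76 TPM in replicate 2, the opposite order. Dusp5 (ENSMUSG00000034765.6, chromosome 19, 53529109 to 53542431, plus strand), a phosphatase of nuclear ERK, had 30 counts and 0.46 TPM in replicate 1, and 16 counts and 0.29 TPM in replicate 2.

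The cytoplasmic ERK-selective enzymes had close levels in the libraries. Dusp7 (ENSMUSG00000053716.9, chromosome 9, 106368632 to 106375724, plus strand) had the most counts of any member, 620 in replicate 1 and 517 in replicate 2, and levels of 7.63 and 7.98 TPM. Dusp6 (ENSMUSG00000019960.8, chromosome 10, 99263231 to 99267489, plus strand), a feedback phosphatase induced by ERK, had 169 and 134 counts and levels of 2.58 and 2.15 TPM. Dusp7 was therefore above Dusp6 in both libraries.

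Of the enzymes that prefer JNK and p38, Dusp16 was the only member above 1 TPM. Dusp16 (ENSMUSG00000030203.17, chromosome 6, 134715468 to 134792625, minus strand), a phosphatase best known for acting on JNK, had 358 counts and 3.12 TPM in replicate 1, and 403 counts and 4.53 TPM in replicate 2. Dusp10 (ENSMUSG00000039384.8, chromosome 1, 184013302 to 184075636, plus strand), which restrains JNK and p38 in immune cells, had 48 counts and 0.65 TPM in replicate 1 and 34 counts and 0.54 TPM in replicate 2. Dusp8 (ENSMUSG00000037887.11, chromosome 7, 142079490 to 142095843, minus strand), a gene best known from brain and heart, was lowest, with 14 counts in replicate 1 and 16 in replicate 2. Its TPM was 0.11 in replicate 1 and 0.23 in replicate 2 although the counts were close, because 1.58 counts of replicate 2 were assigned to the short transcript Dusp8-202, which shortened the effective length of the gene to 2846 bases, against 4570 in replicate 1. The bounds that the authors deposited with their posterior mean TPM ran from 0.0685 to 0.316 in replicate 1 and from 0.109 to 0.565 in replicate 2. These overlap, so a difference in Dusp8 was not detectable at this depth.

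By mean TPM the order was Dusp7 (7.81 ± 0.247; SD, n = 2), Dusp1 (7.63 ± 1.75), Dusp2 (5.73 ± 2.22), Dusp16 (3.83 ± 0.997), Dusp6 (2.37 ± 0.304), Dusp4 (1.37 ± 0.552), Dusp10 (0.595 ± 0.0778), Dusp5 (0.375 ± 0.120) and Dusp8 (0.170 ± 0.0849). Neighbours were called apart where the mean of their log2 TPM ratios within the 2 libraries exceeded the SD of those ratios. By this rule Dusp7 and Dusp1 did not differ beyond their spread (log2 ratio 0.05 ± 0.38), nor did Dusp2 and Dusp16 (0.55 ± 0.95) or Dusp5 and Dusp8 (1.20 ± 1.22). Dusp7 stood below Dusp1 in replicate 1 and above it in replicate 2, and Dusp2 stood above Dusp16 in replicate 1 and below it in replicate 2. The closest neighbours called apart were Dusp1 over Dusp2 (0.45 ± 0.24) and the widest were Dusp4 over Dusp10 (1.15 ± 0.79). With 2 libraries the SD is itself poorly known.

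The second quantification, a deposited transcript-level estimate made from the reads rather than from alignments, gave the same order of mean levels, from Dusp7 at 16.4 ± 4.61 TPM and Dusp1 at 3.85 ± 0.0979 TPM down to Dusp8 at 0.151 ± 0.0510 TPM. Apart from Dusp7, means there were lower than in the gene-level tables. The high value of Dusp7 came from Dusp7-202, a processed transcript of 270 bases that received 59.9 counts and 9.73 TPM in replicate 1 and 76.2 counts and 14.6 TPM in replicate 2, since its effective length was only 72.8 and 77.0 bases. Without this transcript Dusp7 had 3.45 and 5.14 TPM there, and the gene-level tables assigned it 0 counts in both libraries. The level of Dusp7 relative to Dusp1 is therefore uncertain. For Dusp1 and Dusp2 the second quantification gave near-equal levels in the libraries, 3.78 and 3.92 TPM for Dusp1 and 3.04 and 2.97 TPM for Dusp2, although its counts, like those of the gene-level tables, were higher in replicate 1 for both genes, with 280 and 185 for Dusp2.

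More than 50% of the Dusp1 TPM was assigned to transcripts that keep an intron, and Dusp2 had such a share in replicate 2 only. Of the 9 genes, 3 (Dusp1, Dusp2 and Dusp16) have an annotated retained-intron transcript, that is, a transcript in which an intron of the coding mRNA is kept. Nuclear RNA may also hold incompletely spliced transcripts, and their part in these shares was not tested. In Dusp1, retained-intron transcripts took 55.8% of the TPM in replicate 1 and 75.1% in replicate 2. In Dusp2 they took 27.8% and 52.5%, and by expected counts, with no division by length, 12.7% and 29.9%. In Dusp16 the share was 0% and 5.52%. Dusp1 was over 50% in both libraries, as were 15.4% of the 6143 detected protein-coding genes that have such a transcript, and Dusp2 passed 50% in replicate 2 only, as did 6.20%. The median share over those genes was 29.2% in replicate 1 and 30.7% in replicate 2, so Dusp2 lay near the median in replicate 1.

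The retained introns lie within the coding regions. Dusp1-203 keeps intron 2 of the coding transcript Dusp1-202 (chromosome 17, 26507205 to 26507573, 369 bases) and Dusp1-204 keeps intron 3 (26506651 to 26506984, 334 bases). Dusp2-202 keeps intron 2 of Dusp2-201 (chromosome 2, 127336899 to 127337248, 350 bases). In both genes intron 2 is followed by an exon 3 of 220 bases. These sequences, from the GENCODE transcripts of GRCm38, show what tells the forms apart: the last 15 bases of the exon in lower case, then in capitals the first 15 bases of the next exon where the intron was removed, or of the intron where it was kept.
Dusp1-202, exon 2 joined to exon 3: cctctctacgatcagGGGGGCCCAGTGGAG
Dusp1-203, exon 2 running into intron 2: cctctctacgatcagGTTAGTAGGAGTCCG
Dusp1-202, exon 3 joined to exon 4: ctattgacttcatagACTCCATCAAGGATG
Dusp1-204, exon 3 running into intron 3: ctattgacttcatagGTAAATGGAATAACT
Dusp2-201, exon 2 joined to exon 3: ccgatctatgaccagGGTGGTCCTGTGGAA
Dusp2-202, exon 2 running into intron 2: ccgatctatgaccagGTGAGTTGATATTCG
The joined exons 2 and 3 of Dusp1 and Dusp2 had the same base at 22 of these 30 positions, and the first 15 bases of intron 2 at 9 of 15. Each kept intron begins with GT and ends with AG, the usual ends of introns.

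**Figure D2:**
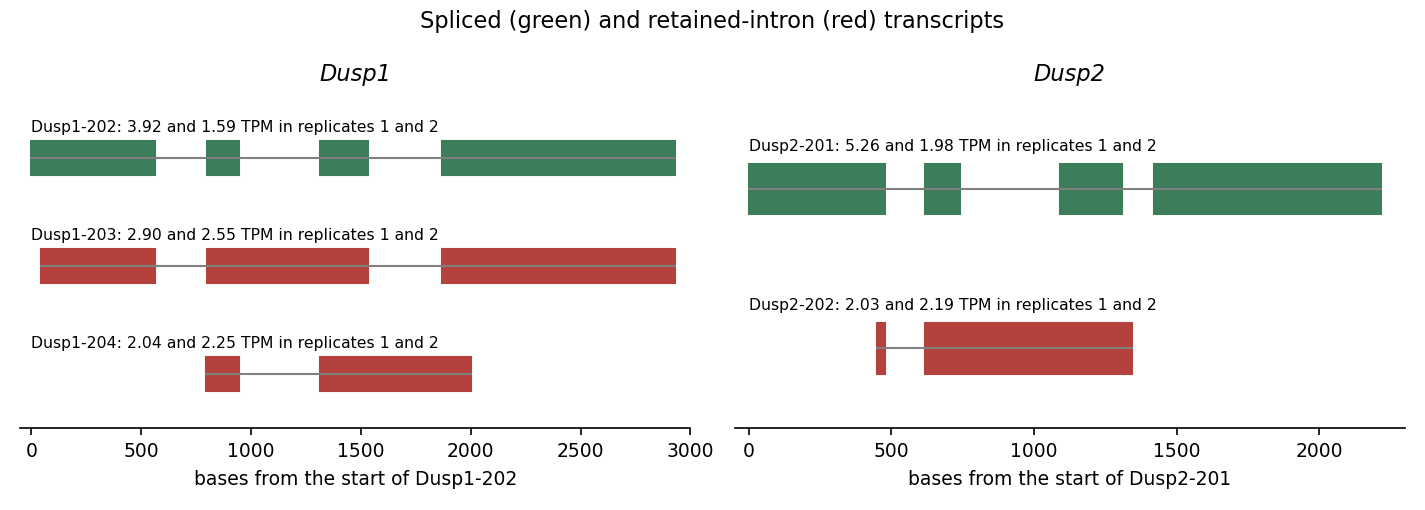
Exons (boxes) and introns (lines) of the spliced coding transcripts (green) and the retained-intron transcripts (red) of Dusp1 and Dusp2, drawn to scale in bases from the start of the coding transcript, with the TPM of each in replicates 1 and 2. In these tables, derived from alignments, the TPM of the spliced transcripts was lower in replicate 2, while each retained-intron transcript stayed between 2.03 and 2.90 TPM.

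In the tables derived from alignments, the difference between libraries in Dusp1 and Dusp2 lay in the spliced transcripts. The coding transcript Dusp1-202 had 200 counts and 3.92 TPM in replicate 1, and 69.3 counts and 1.59 TPM in replicate 2. The retained-intron transcript Dusp1-203 had 2.90 and 2.55 TPM, and Dusp1-204 had 2.04 and 2.25 TPM. In Dusp2, the coding transcript Dusp2-201 had 211 counts and 5.26 TPM in replicate 1 and 68 counts and 1.98 TPM in replicate 2, against 30.8 and 29 counts, or 2.03 and 2.19 TPM, for the retained-intron transcript Dusp2-202. On the log2 scale, with TMM scaling of the libraries, the ratio of replicate 2 over replicate 1 was -1.27 for Dusp1-202 (95% counting interval -1.70 to -0.88) and -0.16 for Dusp1-203 (-0.50 to 0.17). It was -1.37 for Dusp2-201 (-1.79 to -0.98) and 0.16 for Dusp2-202 (-0.62 to 0.94). In each gene the interval of the spliced form lay below that of the retained form, and that of Dusp2-202 was wide. These intervals cover counting error only and not the assignment of shared reads to transcripts. The bounds deposited by the authors for the TPM of Dusp1-202 were 2.28 to 4.42 in replicate 1 and 0.501 to 2.30 in replicate 2, which just overlap, and those of Dusp2-201 were 4.44 to 5.81 and 1.47 to 2.38, which do not.

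Summed by type, the coding part minus the retained-intron part of the log2 ratio was -1.18 for Dusp1 and -1.54 for Dusp2, against a median of -0.13 over 4290 protein-coding genes in which each part had a mean count of 30 or more. The retained-intron part of Dusp2, with 30.8 and 29 counts, fell just short of that minimum, so Dusp2 is not among those genes. A difference of -1 or lower was found in 7.09% of those genes. The retained-intron share of Dusp1 was 19.4 percentage points higher in replicate 2, and that of Dusp2 24.7 points higher. Shares were higher by at least 10 points in 12.6% of 5698 genes, and the median shift was 0.80 points. The second quantification placed the shares of Dusp1 at 53.9% and 70.6% and those of Dusp2 at 33.1% and 55.2%, close to the main values. Its spliced transcripts were also lower in replicate 2, at 1.32 and 0.744 TPM for Dusp1-202 and 2.035 and 1.33 TPM for Dusp2-201. Its retained-intron transcripts, unlike those of the main tables, were all higher in replicate 2. Dusp1-203 had 1.16 and 1.35 TPM, Dusp1-204 had 0.880 and 1.42 TPM, and Dusp2-202 had 1.01 and 1.64 TPM. These comparisons of transcript forms between libraries were chosen after the values were seen, and they set 1 library against 1 other.

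**Figure D3:**
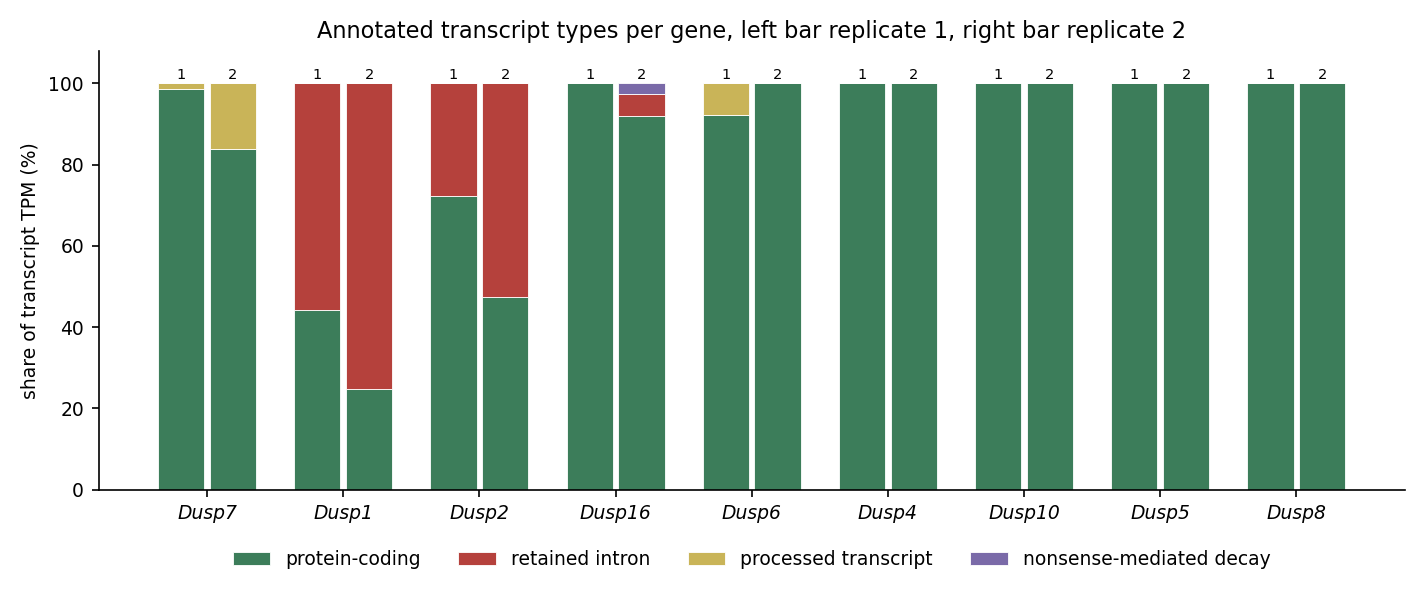
Share of each gene's transcript TPM by annotated transcript type, in percent, with replicate 1 as the left bar and replicate 2 as the right bar of each pair; genes run from the highest to the lowest mean TPM. Retained-intron transcripts (red) fill 55.8% and 75.1% of Dusp1 and 27.8% and 52.5% of Dusp2, while Dusp6, Dusp7 and Dusp16 are mostly coding transcripts (green) in these tables, unlike Dusp7 in the second quantification (26.1% and 22.5%), and Dusp4, Dusp5, Dusp8 and Dusp10 have no other annotated type.

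In the gene-level source, Dusp6, Dusp7 and Dusp16 were mainly coding transcripts. Dusp4, Dusp5, Dusp8 and Dusp10 have only coding transcripts annotated, Dusp4 and Dusp5 a single one each, so their coding share of 100% was fixed by the annotation. Coding transcripts took 98.7% of Dusp7 in replicate 1 and 83.7% in replicate 2, where the processed transcript Dusp7-204 took 16.3%, from 25.6 counts. In the second quantification, coding transcripts took only 26.1% and 22.5% of Dusp7, and processed transcripts, Dusp7-202 among them, 73.9% and 77.5%. In Dusp6 the share was 92.3% and 100%, divided between Dusp6-201 with 1.49 and 1.94 TPM and the shorter Dusp6-204 with 0.89 and 0.22 TPM. Dusp16 was divided among 3 coding transcripts: Dusp16-202 with 1.15 and 1.6 TPM, Dusp16-201 with 1.08 and 1.30 TPM, and Dusp16-204, whose annotated end lies inside the gene, with 0.89 and 1.26 TPM. All 3 were higher in replicate 2. Over the 9 members the median coding share was 100% in each library. The 4 genes with no other annotated type were at 100%, as was Dusp16 in replicate 1 and Dusp6 in replicate 2.

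At the gene level, Dusp2 was the only member apart between the libraries, a term used for a mean count of 100 or more together with a log2 ratio of 1 or more in either direction. Its log2 ratio of replicate 2 over replicate 1 was -1.06 (95% counting interval -1.42 to -0.72), close to the threshold. Of 10198 genes with that mean count, 2.00% were apart and 1.18% were apart and lower in replicate 2. In the second quantification the ratio of Dusp2 was -0.74 and no member was apart. Dusp1 had a ratio of -0.55 (-0.79 to -0.32), Dusp16 one of 0.43 (0.22 to 0.64) and Dusp4 one of 0.87 (0.43 to 1.33), all beyond counting error. Dusp7 was at -0.01 (-0.18 to 0.16) and Dusp6 at -0.08 (-0.42 to 0.26). Dusp4, Dusp5, Dusp8 and Dusp10 were under the mean count minimum, and the intervals of Dusp5, Dusp8 and Dusp10 included 0. A ratio of single libraries has no replicate check, and no p-value is given.

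**Figure D4:**
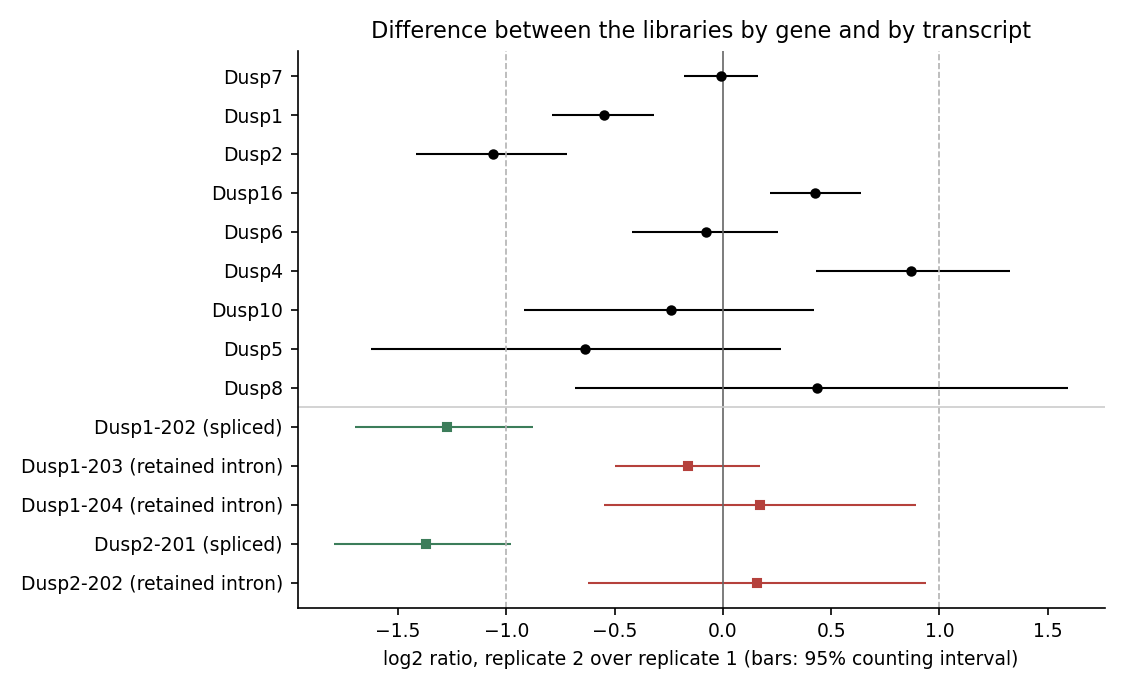
Log2 ratio of replicate 2 over replicate 1 for each gene (black circles) and for the spliced (green) and retained-intron (red) transcripts of Dusp1 and Dusp2; bars are 95% counting intervals and dashed lines mark ratios of -1 and 1. Dusp2 lies at -1.06, Dusp1-202 and Dusp2-201 lie near -1.3, and the retained-intron transcripts lie near 0.

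Immediate early genes, which like Dusp1 are transcribed within minutes of a stimulus, mostly had lower values in replicate 2, though 1 of them was apart. Of the 11 with a mean count of 100 or more, 10 had a negative log2 ratio, against 5188 of 10198 over all genes, and the median was -0.46, against -0.01. Egr1, a transcription factor gene induced through ERK, was the gene apart, with 271 counts in replicate 1 and 57 in replicate 2. Among the 6 SOCS genes with that count, feedback inhibitors of cytokine receptors, 2 were apart, against 2.00% of all genes. Socs1 had 624 counts in replicate 1 and 199 in replicate 2, and Socs3 had 632 and 264. The 5 members with that count had a median of -0.08, with 4 lower in replicate 2, and the 8 MAP kinase genes a median of 0.17. Apart from the immediate early genes, medians of the lists ran from -0.17 (SOCS genes) to 0.22 (Sprouty and Spred genes). The part of starting RNA amount in these differences was not tested.

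The MAP kinase genes were detected about as often as the phosphatases, with 8 of 14 against 5 of 9 members. Those that were detected reached higher levels. Whether the family acts on each of the 14 kinases was not examined. While 0 of 9 members did so, 7 of 14 MAP kinase genes were at 10 TPM or above in each library, among them Mapk6 at 35.5 ± 2.62 and the p38 gene Mapk14 at 32.7 ± 1.06 TPM (SD, n = 2), with Mapk4 and Mapk15 listed at 0, though not in every library of the second quantification (0.185 and 0.146 TPM for Mapk4, 0 and 0.223 TPM for Mapk15). In all, 5 of the 14 MAP kinase genes were below 1 TPM in both libraries, Mapk4 and Mapk15 among them. Medians on the log2(TPM + 0.1) scale were 1.30 ± 0.18 for the phosphatases and 3.35 ± 0.14 for the MAP kinases. Of 7 MAP kinase kinases 6 were detected (median 3.67 ± 0.04), from Map2k2 at 22.8 ± 3.71, Map2k1 at 21.9 ± 4.17 and Map2k5 at 13.5 ± 1.6 TPM to Map2k6 at 0.705 ± 0.446 TPM. Of 17 kinases that act on those, 14 were detected (median 3.62 ± 0.12), among them Map3k8, which links Toll-like receptors to ERK, at 55.7 ± 9.67 and Araf at 34.3 ± 0.24 TPM, with Map3k13 lowest at 0.165 ± 0.00707 TPM. Of 11 kinases activated by MAP kinases 10 were detected (median 4.10 ± 0.10), with Mknk1 at 51.5 ± 7.87, Mapkapk2 at 39.9 ± 0.283 and Mapkapk5 at 22.0 ± 4.71 TPM, and Rps6ka6 at 0. Of 7 scaffold genes 3 were detected (median -0.05 ± 0.24), with Mapk8ip3 at 67.0 ± 3.4, Lamtor3 at 32.1 ± 3.20 and Spag9 at 30.4 ± 1.58 TPM, and Mapk8ip2 lowest at 2 and 0 counts.

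Other inhibitors of the pathway spanned a wide range around the family. Of 8 phosphatases from other families that act on MAP kinases, 6 were detected (median 2.45 ± 0.01), with Ppp2ca at 17.5 ± 1.01, Ppm1b at 15.3 ± 1.06 and Ppm1a at 12.0 ± 1.61 TPM, and Ptprr listed at 0. The second quantification gave Ptprr 1.17 and 1.62 TPM and detected all 8, so the level of Ptprr is uncertain. Of 17 other dual-specificity phosphatases and relatives 7 were detected (median -0.55 ± 0.68), with Dusp11, which acts on RNA, at 44.9 ± 2.52, Dusp3 at 21.6 ± 2.69 and Dusp22 at 6.76 ± 0.644 TPM. Dusp9, a close relative of Dusp6 and Dusp7, had 0 counts in both libraries, as had Dusp15, Dusp21 and Dusp26. Of 7 Sprouty and Spred genes, which restrain the ERK pathway upstream of ERK, 3 were detected (median 0.31 ± 0.38), with Spred1 at 30.4 ± 2.16, Spred2 at 2.50 ± 0.750 and Spred3 at 1.33 ± 0.170 TPM, and Spry4 at 0. Of 16 immediate early genes 10 were detected (median 1.97 ± 0.35), with Atf3 at 36.1 ± 14.1, Junb at 35.7 ± 13.5 and Jun at 25.8 ± 9.47 TPM, and Fosl1 lowest at 0.015 ± 0.0212 TPM. Of 8 SOCS genes 6 were detected (median 2.57 ± 0.40), with Socs6 at 13.9 ± 1.68, Socs4 at 12.4 ± 0.757 and Socs3 at 7.0 ± 3.38 TPM, and Cish at 0.510 ± 0.396 TPM. All 8 mRNA decay factors were at 10 TPM or above (median 4.87 ± 0.03), with Hnrnpd at 47.1 ± 4.96, Zfp36, which is itself a p38 target, at 46.1 ± 9.82 and Zfp36l2 at 32.5 ± 6.48 TPM, and Rc3h1 lowest at 11.9 ± 0.834 TPM.

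**Figure D5:**
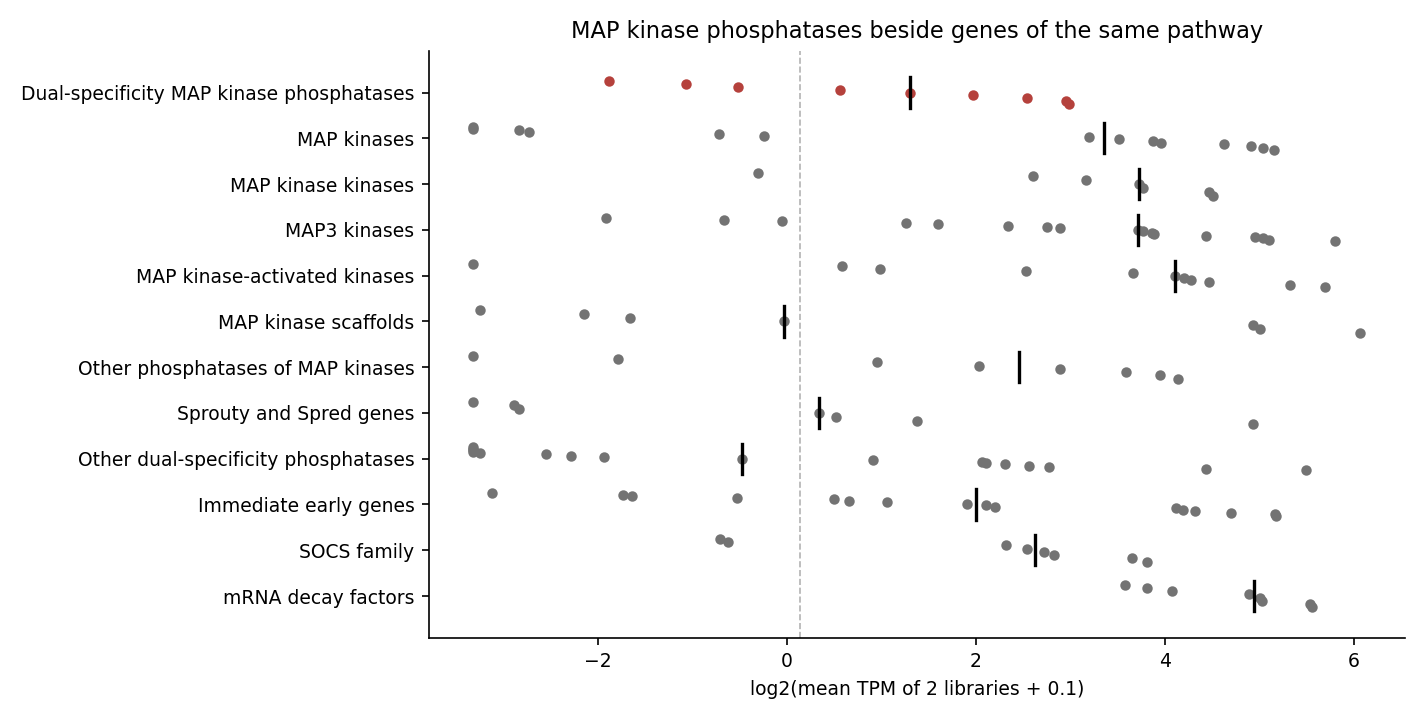
Mean level of each gene over both libraries, as log2(TPM + 0.1), for the MAP kinase phosphatases (red, top) and 11 lists of related genes (grey); each point is a gene, the black bar is the median of the plotted points and the dashed line marks 1 TPM. The phosphatases end below 10 TPM, while all 8 mRNA decay factors lie above it.

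Sequence features varied across the members and were compared with all genes as a description. AU-rich repeats of ATTTA in the 3′ untranslated region are known to shorten the life of many inducible mRNAs. The annotated 3′ untranslated region of Dusp1-202 (690 bases) held 4 copies of ATTTA and that of Dusp2-201 (581 bases) also 4, or 5.80 and 6.89 per kb, against 1.96 per kb over 20601 protein-coding genes. The other members held between 0 and 2.69 per kb, and Dusp7-201 held none in 1778 bases. The longer form TATTTAT, which contains ATTTA, was found in 3 members, with 3 copies in Dusp1, 2 in Dusp8 and 1 in Dusp2, and in 26.5% of all genes. At least 3 copies were found in 3.83% of all genes. In 5 members a stretch of 30 bases held 2 copies of ATTTA. The share of all genes with such a stretch was not counted, so this number has no background beside it. These stretches, from the GENCODE transcripts, are shown with ATTTA in capitals. In Dusp1, Dusp8, Dusp10 and Dusp16 the copies overlap, and in Dusp2 they stand apart.
Dusp1-202: agctggtccttATTTATTTAacacccccct
Dusp2-201: aaattaATTTAattaattaATTTActatat
Dusp8-201: ttcgattttttATTTATTTAagctagtgat
Dusp10-201: aaaaaacaaaaATTTATTTAaaaaatattt
Dusp16-202: ggtaagatgtaATTTATTTAagaatgaaaa

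RefSeq promoter windows of GRCm38.p6, from 250 bases before to 50 after the gene start, matched 8 of the 9 members (all but Dusp4) and were searched on both strands. The cyclic AMP response element TGACGTCA, bound by CREB and ATF factors, occurred once in the window of Dusp1 and at 2 places in that of Dusp8, and in 1.79% of 32851 windows. The CArG box, bound by serum response factor, occurred at 2 adjacent places in the window of Dusp5, without overlap, and in 1.63% of windows. No member's window held the AP-1 site TGANTCA (7.81% of windows), TATAAA (13.6%) or the NF-kappaB site (8.46%). The matches, in capitals, are shown on the gene's strand because only these 3 windows held any of the motifs searched.
Dusp1 at chr17:26508597-26508626, minus strand: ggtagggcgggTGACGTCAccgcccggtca
Dusp8 at chr7:142095373-142095402, minus strand: gcccgctccgcTGACGTCAcctgcccccga
Dusp8 at chr7:142095329-142095358, minus strand: ttggctgcaggTGACGTCAggggctttttc
Dusp5 at chr19:53529053-53529082, plus strand: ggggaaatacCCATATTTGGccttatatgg
Dusp5 at chr19:53529063-53529092, plus strand: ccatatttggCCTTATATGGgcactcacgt
Dusp1 and Dusp8, whose windows both held TGACGTCA, had mean levels of 7.63 and 0.170 TPM. A link between the element and the level was not tested.

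Of the genes that overlap a member, all but Ergic1 had few or no counts. Within the span of Dusp1, which is long because the transcript Dusp1-205 starts upstream, AC122252.4, AC122252.1 and Gm8225 had 0 counts, and Ergic1 on the opposite strand, which overlaps at its far end, had 547 and 503 counts. Dusp1-205 itself had 0 counts in the gene-level tables, and 47.5 and 20.1 counts in replicates 1 and 2 of the second quantification. AC137853.2 at Dusp5 and Gm32786 at Dusp8 had 0 counts, 1700056E22Rik at Dusp10 had 6 and 0, and Gm36328 at Dusp16 had 3 and 9. Whether counting used the strand is not given in the sources used here. Where bases are shared, reads of opposite-strand partners therefore cannot be told apart from those of the members. Ergic1, from 26561489, shared no bases with the Dusp1 transcripts that held counts in the gene-level source, which end by 26508519. Dusp1-205 and Dusp1-201, which reach Ergic1, had 0 counts in that source. At Dusp10, 1700056E22Rik ends at 184034301, before Dusp10-201, which starts at 184034381 and held all Dusp10 counts.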

How the data were processed

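Members and lists were chosen with earlier results of these data known. The deposited gene-level and transcript-level tables hold expected counts and TPM per entry; per the deposited notes they derive from alignments to the transcriptome (mm10, GENCODE mouse release 21). Each library also has another deposited table per transcript, the second quantification, of estimated counts and TPM derived straight from the reads. Bounds deposited by the authors for the posterior mean TPM have no stated level. The quantification programs were not given in the sources used here. The 26345 entries that name no annotated gene held 1.01% of counts in replicate 1 and 0.336% in replicate 2 and were left out.

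Levels are TPM, with medians of log2(TPM + 0.1). Counts were rounded; log2 ratios used TMM factors from edgeR 4.0.16 in R 4.3.3 over genes past filterByExpr and a prior count of 0.5, with Clopper-Pearson 95% intervals. DESeq2 1.42.0 size factors were an alternative. The ratio steps were tested on simulated data. Shares by transcript type used GENCODE types and transcript TPM. For 3′ untranslated regions, the coding transcript with the highest mean TPM per gene was used. Named genes were all members, the top 3 and the lowest of each list (some list genes are not reported here), and genes that overlap a member; Egr1 and Socs1 were named after their values were seen. Protein comparisons that had been planned were not made. Python 3.11.15, numpy 2.4.6 and pandas 2.3.3 were used.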

Additional observations from a re-analysis of the deposited data

How the results depend on the processing

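The number of detected members was 5, between 5 and 7 under other quantifications, rescaling over protein-coding genes or a threshold of 0.5, 5 and 6 with 1 library alone, and 2 at a threshold of 5. The share of all protein-coding genes detected under these other settings is not given here, so these counts have no background beside them. The median level of members minus that of all protein-coding genes was 2.21; it was 1.37 with posterior mean TPM, 1.23 with a pseudocount of 1, 0.81 with the second quantification and 0.87 when that was rescaled over protein-coding genes (an alternative chosen after seeing the data), and between 2.05 and 2.37 with 1 library alone. Against detected protein-coding genes alone it reversed to -1.92, since that background leaves out the genes under 1 TPM. The order of Dusp7 over Dusp1 widened from a log2 ratio of 0.05 to 2.07 in the second quantification. The count of members apart between the libraries was 1 and became 0 in the second quantification, where the log2 ratio of Dusp2 was -0.74. The other scalings, the prior count of 2, the mean count minimum of 50 and the lower ratio threshold of 0.58 left it at 1. At the threshold of 0.58, 1009 of 10198 genes were apart, against 204 at the main threshold. The median coding share was 100%, 89.1% with posterior mean TPM and 84.2% with the second quantification. In the latter the middle member was Dusp16 in replicate 1 (80.5%) and Dusp6 in replicate 2 (87.9%). The coding share of Dusp7 there was 24.3% in place of 91.2%, and the cause of the other shifts was not tested. No paired analysis was possible because the series has a single group. Under 50 counts, as in Dusp5, Dusp8 and Dusp10, depth limits any comparison.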
